A study of Mus musculus with 24 samples.

Results

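Transcription factor genes that are commonly linked to type 1 regulatory T (TR1) cells, Maf, Batf, Irf4, Prdm1, Nfil3, Bhlhe40, Tox, Tox2 and Nfia, were followed through the RNA, DNA methylation and open chromatin of liver-resident invariant natural killer T (LiNKT) cells. The 9 members were taken by name from the 55401 gene rows of the count tables, and all 9 were found there. LiNKT cells are αGalCer/CD1d tetramer+ cells of the liver. They came from NOD mice, which become diabetic spontaneously through autoimmunity. Treated mice had received αGalCer/CD1d-NPs, nanoparticles that carry the glycolipid αGalCer on CD1d, at 20 µg per dose and 2 doses per week for 5 weeks, whereas the labels and the methods of each assay call the comparison group untreated. For the multiome, the study elsewhere names vehicle-treated controls and a younger age, and its general methods also allow for control particles with cysteine. The RNA of single cells was read by SmartSeq2 from 3 untreated and 3 treated male mice of 13 to 15 weeks. Methylation was read by whole genome bisulfite sequencing from 7 untreated female mice of 17 weeks and 4 treated mice of 16 weeks, whose sex is not given in the sources used here. Sex, age and treatment cannot be told apart in that comparison. The chromatin of single nuclei came from a 10X multiome of 5 untreated and 4 treated male mice of 13 to 15 weeks. Each assay gives 1 sample per group, since no table separates the mice. The assays used different mice, so that values of different assays stand beside each other without a test of their relation. No difference between the groups has a replicate check, and no p-values are given.

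These factors act at successive layers. BATF, an AP-1 family protein, and IRF4 bind DNA together downstream of the T cell receptor. MAF drives transcription of Il10 and Il21 in several T cell subsets, and BLIMP-1, the product of Prdm1, restrains the follicular helper program and promotes effector and regulatory fates. NFIL3 is a basic leucine zipper factor of innate lymphocytes, BHLHE40 restrains Il10 in T cells and is an early target of receptor signalling, TOX and TOX2 are HMG-box factors of chronically stimulated T cells, and NFIA belongs to the nuclear factor I family. Il10 encodes the main suppressive cytokine of TR1 cells, Il21 a cytokine shared with follicular helper cells, and Lag3 an inhibitory receptor that marks TR1 cells.

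The count tables held 284 untreated and 282 treated cells, of which 273 and 251 were in the study's own list of cells with a sub-cluster and were used. The sums came to 172559865 and 149084200 counts, with medians of 635257 and 599896 counts and of 861 and 850 genes per cell, and no cell name or count profile was shared between the tables. Cd3e and Trac, which mark αβ T cells in general and not the iNKT lineage, had reads in 81.3% and 83.9% of untreated cells and 79.7% and 74.1% of treated cells. Zbtb16, the defining factor of the iNKT lineage, had reads in only 4.40% and 6.37% of cells, so that its reads do not show the lineage. That rests on the tetramer sort and on the T cell receptors that the study rebuilt from SmartSeq2 cells. Nearly all productive TCRα chains there used the prevalent iNKT elements. Of the markers of other cell types, Sdc1, Jchain and Igkc of plasma cells were at 0 in both groups, whereas the macrophage markers Lyz2, C1qa and Csf1r summed to 0.0116 counts per 1000000 counts (CPM) in the untreated group and to 1793 CPM in the treated group, where 4.38% of cells had Lyz2 reads. Hepatocyte markers summed to 0 and 82.3 CPM. A level below is the sum of counts over the cells of a group in CPM. Ratios add 1 CPM to both levels, and a gene is called at a 2-fold difference if it had reads in at least 10 cells of both groups together, a minimum that Irf4 just met. A share is the percentage of cells with at least 1 read, with an exact binomial 95% interval. Where no cell had a read, the limit given in its place is that of 3 cells of the total, which lies below the upper end of the exact interval (1.34% for 273 and 1.46% for 251 cells). These intervals, the Poisson intervals of levels and the limits set by a count of 0 cover counting error only. The intervals of levels treat amplified reads as independent counts, so that they are too narrow.

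Of the members, 4 were called higher in treated cells (Maf, Batf, Irf4 and Tox), Bhlhe40 was called lower, Prdm1 and Nfil3 stayed within 2-fold, and Nfia and Tox2 were read in fewer than 10 cells. Over all 8286 genes read in at least 10 cells, 11% were called higher and 11.4% lower, against 4 and 1 of the 7 members that could be called. The median log2 ratio of these 7 was 1.16, beside -0.0039 over all genes. The members were chosen with earlier results of these data known, so that these contrasts are a description. In bulk sums such as these, more cells with a transcript and more transcript per cell cannot be told apart, so that the share of cells is given beside each level.

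Maf had a summed level of 28.6 CPM in untreated cells (Poisson interval from 27.8 to 29.4) and 123 CPM in treated cells (from 121 to 124). One untreated cell held 34.5% of the untreated sum, and 1 treated cell held 12.6% of the treated sum. Maf reads fell in 19 of 273 untreated cells (6.96%, interval from 4.24% to 10.7%) and in 74 of 251 treated cells (29.5%, interval from 23.9% to 35.5%). The intervals of the shares did not overlap, which held in the same direction for 1.35% of all genes. Within the sequencing lanes, the only batch that the cell names show and one that holds both groups, the share went from 6.52% to 26.6% in lane 1 and from 7.87% to 35.9% in lane 2. The levels were 35.8 and 83.0 CPM in lane 1 and 15.0 and 209 CPM in lane 2, so that the direction was the same and the size of the difference was not. The log2 ratio of 2.06 thus stood at 1.19 and 3.71 in the single lanes. Macrophages also express Maf. A read of any macrophage, hepatocyte, B cell, plasma cell or dendritic cell marker was found in 3 of the 74 treated Maf+ cells (4.05%) and in 9.04% of treated cells without Maf reads. Without the 19 treated and 7 untreated cells with such a read the Maf shares were 30.6% and 6.77%. Among treated cells, Nfil3 was the only member with such reads more often in positive cells (2 of 16, 12.5%) than in the others (7.23%).

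Batf was read in 21 untreated cells (7.69%, interval from 4.82% to 11.5%) and 42 treated cells (16.7%, interval from 12.3% to 21.9%), again without overlap. Its level was 100.1 CPM in untreated cells and 224 CPM in treated ones, a log2 ratio of 1.16. Batf+ cells held similar numbers of reads in both groups, with medians of 802 and 751.5, so that the higher level went along with more positive cells. Within lane 1 the shares were 7.61% and 15.0%, within lane 2 they were 7.87% and 20.5%, and the intervals overlapped in both. The log2 ratio was 0.89 in lane 1, under 2-fold, and 1.84 in lane 2. With all cells of the tables the shares were 8.45% and 16.3%, and their intervals overlapped as well.

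Irf4, the partner of BATF, was read in 3 untreated and 7 treated cells, and its levels of 4.43 and 15.3 CPM rested on few of them. One treated cell held 59.5% of the treated sum and 1 untreated cell 82.7% of the untreated sum. The call of a 2-fold higher level (log2 ratio of 1.58) therefore describes a handful of cells, and the shares of 1.10% and 2.79% had overlapping intervals. Tox was read in 8 untreated cells (2.93%) and 21 treated cells (8.37%), and its top cell held 38.9% of the untreated and 23.3% of the treated sum. The Tox level was 9.91 CPM in untreated cells and 43.6 CPM in treated ones (log2 ratio of 2.03). The intervals of its shares overlapped narrowly, ending at 5.69% in untreated and starting at 5.25% in treated cells.

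Prdm1 had levels of 67.0 and 111 CPM and shares of 4.76% and 7.57% in untreated and treated cells. Within lane 2 its levels were 67.5 and 73.5 CPM, so that the log2 ratio of 0.72 stood at 0.12 there. Nfil3 had levels of 83.5 and 165 CPM, just under the 2-fold line with a log2 ratio of 0.97, and was read in 9 untreated cells (3.30%) and 16 treated cells (6.37%). Its lane values were 112 and 207 CPM in lane 1 and 28.8 and 71.5 CPM in lane 2, the latter from 1 untreated and 4 treated cells. Nfil3 passed 2-fold in lane 2 (log2 ratio of 1.28), with all cells of the tables (1.06), with the mean of single-cell CPM (1.05) and without the top cell of each group (1.46). That top cell held 41.6% of the untreated and 17.4% of the treated sum.

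Bhlhe40 went the other way. It was the most widely read member in untreated cells, in 37 of 273 cells (13.6%, interval from 9.72% to 18.2%), as compared to 20 treated cells (7.97%, interval from 4.93% to 12.04%). Its level was 327 CPM in untreated cells and 84.5 CPM in treated ones, a log2 ratio of -1.94, with 269 and 101 CPM in lane 1 and 436 and 47.8 CPM in lane 2. Positive cells also held fewer reads, with a median of 1418 in untreated and 539.5 in treated cells. The genes of the fixed dissociation and early response list moved in the same direction for Fos (1955 and 720 CPM) and Egr1 (978 and 206 CPM), and in the other direction for Hspa1a (21.7 and 44.1 CPM) and Atf3 (25.5 and 77.9 CPM). Their part in the Bhlhe40 result was not tested.

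Nfia and Tox2 had few or no reads in these cells, where a lack of reads does not show a lack of RNA. The study itself lists Nfia among the iNKT-relevant genes upregulated after treatment, which reads this few cannot test. Nfia had 7 reads in 3 untreated cells and 46 reads in 4 treated cells, 1 of which held 43 of them, while Tox2 had no read in any of the 524 cells, which allows a share of up to 1.10% of untreated and 1.20% of treated cells. Per kb of exon, Batf (71.2 CPM) and Bhlhe40 (69.5 CPM) had the highest levels of the members in untreated cells, followed by Nfil3 (41.2 CPM), Prdm1 (12.01 CPM), Maf (3.47 CPM), Tox (1.30 CPM) and Irf4 (0.904 CPM). In treated cells, Batf (160 CPM) and Nfil3 (81.2 CPM) led, Prdm1 (19.9 CPM), Bhlhe40 (18.0 CPM) and Maf (14.9 CPM) lay close together, and Tox (5.73 CPM) and Irf4 (3.12 CPM) followed. Maf, Bhlhe40, Tox and Nfia each overlap an annotated gene on the other strand (Gm15655, 0610040F04Rik, Gm11802 and E130114P18Rik, respectively). Whether the counting used strand is not given in the sources used here, so that reads of these pairs may not be separable.

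**Figure D1:**
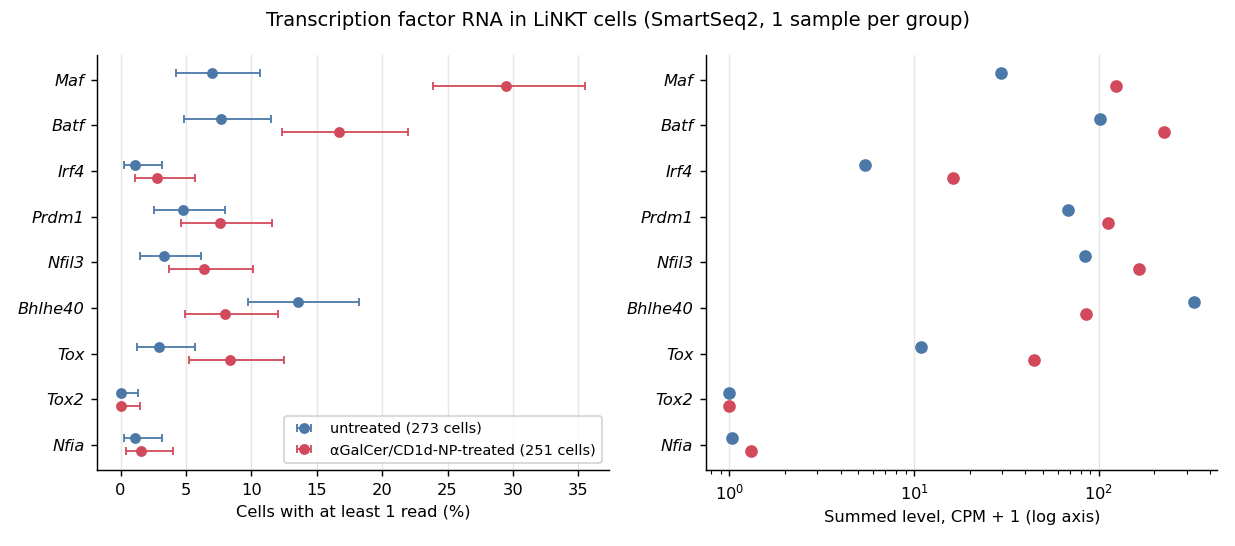
Share of cells with at least 1 read (left, with exact binomial 95% intervals) and summed level (right, CPM + 1 on a log axis) of the 9 members in 273 untreated and 251 αGalCer/CD1d-NP-treated LiNKT cells, 1 sample per group. Maf and Batf have separate intervals (6.96% against 29.5%, and 7.69% against 16.7%), which for Batf was lost within either lane and with all cells of the tables, and Bhlhe40 is the member whose level was called lower in treated cells.

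Related genes from lists chosen by family or role gave a background for these values. Of 14 paralogs of the members, 5 were read in at least 10 cells, none was called higher and Tox4 was called lower (89.2 and 42.2 CPM). These paralogs had a median log2 ratio of 0.39. Of 20 other transcription factors tied to TR1 cells or chronic stimulation, 16 could be called, with a median log2 ratio of -0.17. Among them Ikzf3 (88.1 and 251 CPM) and Bach2 (0.0522 and 31.0 CPM) were called higher, and Junb, an AP-1 subunit (2514 and 1084 CPM), Nr4a3 (17.4 and 3.19 CPM) and Lef1 (62.2 and 8.51 CPM) lower. The call of Bach2 rests on few cells, with 9 reads in 4 untreated cells and reads in 8 treated cells, and the intervals of its shares overlapped. Of 10 surface and effector genes, 9 could be called and 6 were called higher, among them the inhibitory receptors Tigit (4.94 and 342 CPM) and Pdcd1 (34.8 and 794 CPM), and none was called lower.

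The study placed its cells in sub-clusters, which rest on RNA of the same cells, so that the values by sub-cluster are a description. Among treated cells, 57 were in sub-cluster 5, 133 in sub-cluster 4 and 61 in sub-cluster 2, and untreated cells were mostly in sub-cluster 2 (228 cells) and sub-cluster 4 (43 cells), with none in sub-cluster 5. Maf was read in 47 of the 57 cells of sub-cluster 5 (82.5%) at 462 CPM. In treated cells of sub-cluster 4 it was read in 8 of 133 (6.02%) at 7.68 CPM. Treated cells of sub-cluster 2 had Maf reads in 31.1% of cells, as compared to 7.46% of untreated cells of that sub-cluster, but their level was lower (14.4 against 30.9 CPM), so that no order is read from these shares. Batf was spread more evenly over treated cells, with reads in 21.3% of sub-cluster 2, 13.5% of sub-cluster 4 and 19.3% of sub-cluster 5. Prdm1 was read in 14.04% of sub-cluster 5 and in 6.56% and 5.26% of treated sub-clusters 2 and 4. Bhlhe40 had the opposite distribution, with reads in 12.8% of treated sub-cluster 4 and in 1 cell of sub-cluster 5 (1.75%).

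Cells with reads of several members were more frequent among treated cells with a partner gene. Of 251 treated cells, 138 had reads of at least 1 member and 51 of at least 2 (20.3%), and the highest number in a cell was 4. Among the 273 untreated cells, 93 had reads of at least 1 member and 19 of at least 2 (6.96%). At least 2 were read in 25 of the 57 cells of sub-cluster 5 (43.9%). In treated cells with Il10, Il21 or Lag3 reads the share with at least 2 was 46.9%, 50% and 50%, as compared to 16.4%, 16.9% and 11.8% in those without. Maf alone was read in 81.3% of treated cells with and 21.9% of those without Il10 reads. Cells with Il10 reads also had more genes (medians of 967 and 838). The part of Maf and of depth was not tested, and other gene sets of like size were not compared. Maf and Tox shared 12 treated cells and Maf and Prdm1 shared 11, where the product of their shares would give 6.19 and 5.60 cells. Maf and Bhlhe40 shared 1 treated cell (product of shares, 5.90). In untreated cells they shared 4, from 19 cells with Maf and 37 with Bhlhe40 reads, and no product was computed there. The remaining pairs of members are not listed here, and the part of the sub-clusters in these pairs was not tested.

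None of the 273 untreated cells had a read of Il10, Il21 or Lag3, which allows a share of up to 1.10% for each. Co-detection was therefore described in treated cells alone, of which 32 had Il10 reads, 26 had Il21 reads and 56 had Lag3 reads. Cells with Il10 reads had medians of 653411 counts and 967 genes, as compared to 593835 counts and 838 genes in those without, and the depth gap was similar for Lag3 (679864 and 593485 counts). For each partner, 5210 genes were read in at least 10 treated cells. Of these, 29.9% were read at least 1.5 times more often with Il10 than without it, 28% with Il21 and 26.1% with Lag3.

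Maf was read in 26 of the 32 Il10+ cells (81.3%, interval from 63.6% to 92.8%) and in 48 of the 219 Il10- cells (21.9%, interval from 16.6% to 28.0%). Its summed level was 477 CPM in the former and 66.2 CPM in the latter. The same held for the other partners, with Maf reads in 76.9% of Il21+ and 24.0% of Il21- cells, and in 73.2% of Lag3+ and 16.9% of Lag3- cells. By the number of partner genes read in a treated cell, the share of Maf+ cells was 11.9% with none, 61.9% with 1, 83.3% with 2 and 87.5% with 3, the last from 8 cells. The medians of genes per cell in these 4 groups were 833, 819, 980 and 1041, higher with 2 and 3 partners, and the part of depth in these shares was not tested. Most cells with a partner were in sub-cluster 5, with 78.1% of Il10+, 80.8% of Il21+ and 75% of Lag3+ cells. Maf was read in 82.5% of all cells of that sub-cluster. Co-detection within a sub-cluster was not measured, and the part of sub-cluster 5 in these shares was not tested. Conversely, 26 of the 74 Maf+ cells had Il10 reads (35.1%) and 41 had Lag3 reads (55.4%).

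Tox and Nfil3 were the other members read at least 1.5 times more often with Il10. Tox was read in 9 Il10+ cells (28.1%, interval from 13.7% to 46.7%) and 12 Il10- cells (5.48%, interval from 2.86% to 9.38%). Nfil3 was read in 6 Il10+ cells (18.8%) and 10 Il10- cells (4.57%), with overlapping intervals. For Prdm1 the intervals were separate with Lag3 alone. It was read in 9.38% of Il10+ and 7.31% of Il10- cells and in 15.4% of Il21+ and 6.67% of Il21- cells, with overlapping intervals in both cases. With Lag3 it was read in 17.9% of Lag3+ and 4.62% of Lag3- cells, where the intervals (from 8.91% to 30.4% and from 2.13% to 8.58%) did not overlap. The share of all genes with separate intervals was not computed for any partner. Lag3+ cells also had more genes than Lag3- cells (medians of 968.5 and 826), the part of which was not tested. Batf was read in 12.5% of Il10+ and 17.4% of Il10- cells. With Lag3 its shares were 25.0% and 14.4%, again with overlapping intervals. Tox was read in 17.9% of Lag3+ and 5.64% of Lag3- cells, but its level was lower in the former (23.5 against 50.03 CPM), so that no order is read from these shares.

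Bhlhe40 was read in 1 of 32 Il10+, 1 of 26 Il21+ and 1 of 56 Lag3+ cells, as compared to 19 cells without each partner (8.68%, 8.44% and 9.74%). Its intervals overlapped in each case. With each cell thinned to 100000 reads, which left out 3 cells per group, the members read more often with Il10 were again Maf, Nfil3 and Tox.

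**Figure D2:**
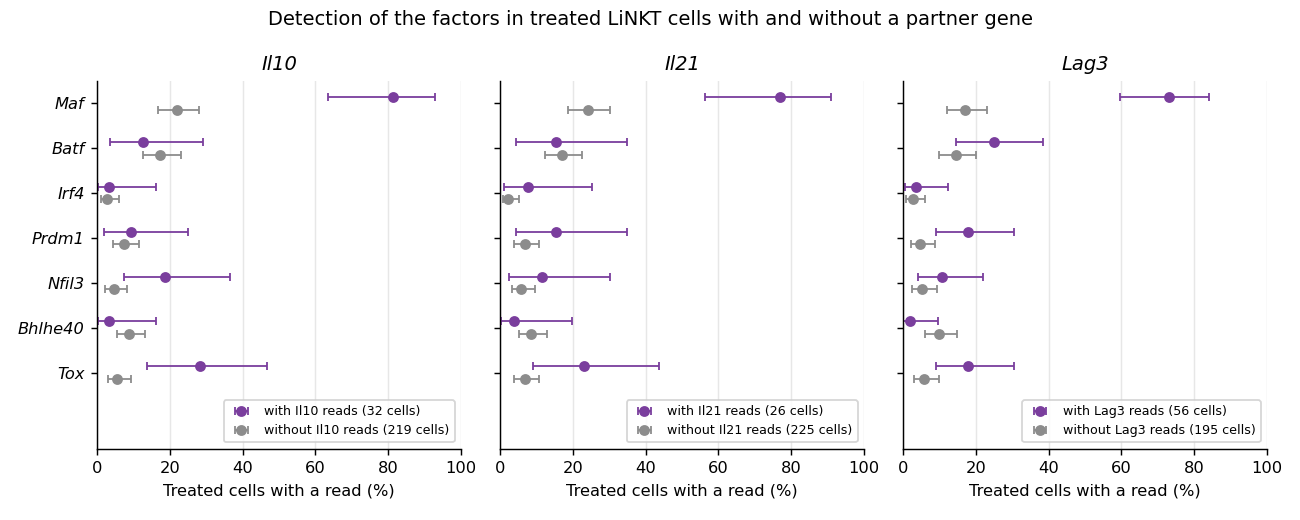
Share of treated LiNKT cells with reads of 7 members, in cells with and without reads of Il10, Il21 or Lag3, with exact binomial 95% intervals. Maf lies at 81.3%, 76.9% and 73.2% in cells with a partner, apart from the cells without it, whereas the intervals of Batf and Bhlhe40 overlap in all 3 panels, the latter with 1 positive cell per partner.

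Maf and Batf, the members read in at least 10% of treated cells, were compared with 2032 genes read in 10% to 90% of these 251 cells, by the phi coefficient of detection (the correlation of having a read). The genes most like Maf were Lag3 (phi of 0.51, with 41 cells in common), Izumo1r, a folate receptor of regulatory and anergic T cells (0.46), and Sccpdh (0.43). Batf was most like Eef2 (0.30), Gm10689 (0.22) and Rps25 (0.22). The cells of a pair share library and depth, and these coefficients are a description.

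Nearly all DMRs called near the members were hypo-methylated in treated mice. Of the 2873 differentially methylated regions (DMRs) in the authors' table, 31 lay within 50 kb of the body of a member, 30 of them with a lower and 1 with a higher mean methylation level in treated mice. The 30 covered 19805 bp in all, and DNA outside called DMRs was not compared. The values below are the authors' means over a region, with an unknown read depth. Of the 9 members, 8 had at least 1 hypo-methylated DMR, the exception being Tox2, whereas 11.3% of protein-coding genes and 8.86% of all annotated genes had one. This contrast is a description, since the members were chosen with earlier results known and the study had named several as hypo-methylated. By its own cut-offs, the study lists Maf and Nfia as upregulated among these. It terms Irf4, Nfil3, Prdm1 and Tox downregulated, though elsewhere it counts fewer downregulated genes in its list. In the RNA sums here, Irf4 and Tox were called higher, and Prdm1 and Nfil3 stayed within 2-fold. The window also grows with gene length, and genes of like length were not compared. Within 50 kb of the start site alone, 5 of the 9 members and 8.38% of protein-coding genes had a hypo-methylated DMR. A hyper-methylated DMR was near Prdm1 alone among the members and near 5.04% of all annotated genes. Of all DMRs, 69% were hypo-methylated. The members' hypo-methylated DMRs had a median methylation level of 84.2% in untreated and 36.2% in treated mice, close to those of all 1983 hypo-methylated DMRs (83.2% and 38.0%). The median drop within a region was 44.5 percentage points for the members and 37.6 for all. Of 668 CpG cytosines in these regions (both strands counted), 657 were lower in treated mice and 453 were lower by at least 30 percentage points. The authors called these regions for a difference between the groups. Lower values at their sites, here and below, are therefore a description and not a check of it.

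These regions were seldom at start sites, taken here and throughout as the outermost start of each annotated gene. Starts of shorter transcripts were not used. Of the 30, 13 lay within introns alone, 10 touched an exon, 6 lay downstream and 1 upstream of the gene. The centre of only 1 of them, an exonic region of Bhlhe40, was within 2 kb of the start site. Such regions were not particular to the members. A hypo-methylated DMR was found within 50 kb for 2 of 14 paralogs (Batf3 and Zfp683), 8 of 20 other transcription factors (with 9 regions at Bach2) and 9 of 10 surface and effector genes, and Il10, Il21 and Lag3 had 8, 9 and 4.

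Irf4 (chr13:30749226-30766976, + strand; GRCm38 here and throughout) had the most, with 9 hypo-methylated DMRs, a number reached by 8 of 21938 protein-coding genes, and 0.0684% of these genes had at least 8. Of these, 6 lay in its introns and coding exons, from 2.37 to 10.3 kb past the start site. In that stretch, the region at chr13:30753997-30754522 went from 85.4% to 30.8% and the one at chr13:30752904-30753635, over a coding exon, from 92.3% to 37.9%. Further regions lay 2.01 kb upstream of the gene (76.5% and 27.6%) and 10.4 and 26.9 kb downstream of it.

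Prdm1 (chr10:44437177-44528501, - strand) had 7 hypo-methylated DMRs, all in the gene or beyond its end, from 73.1 to 128 kb past the outermost annotated start. Their distance from starts of shorter transcripts was not measured. The largest difference of any member was at chr10:44400400-44401220, 36.0 kb downstream of the gene, at 84.7% in untreated and 18.7% in treated mice. This was the 21st largest drop of the 1983. The only hyper-methylated DMR of the members lay between this region and the gene, at chr10:44409780-44410561 (21.5% and 43.5%). An intronic region at chr10:44447474-44448613 was nearly unmethylated in both groups (5.91% and 1.54%).

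Nfil3 (chr13:52967209-52981073, - strand) had a single DMR, 4.33 kb inside the gene in an intron, at chr13:52976239-52977244, where methylation was 82.4% in untreated and 22.8% in treated mice and all 45 CpG cytosines were lower. Nfia (chr4:97772734-98118874, + strand) had 2 regions at chr4:97859563-97860069 (84.9% and 21.7%) and chr4:97860843-97861183 (83.7% and 23.3%), in an intron 87.1 and 88.3 kb past its start site. The nearest protein-coding start site to these was that of E130114P18Rik. Their drops ranked 54th and 81st of 1983. Nfia itself had few reads in the SmartSeq2 cells.

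Tox (chr4:6686353-6991557, - strand) had 4 intronic regions that were spread over its long body, at 50.4, 109, 147 and 243 kb past the start site. They differed by similar amounts, from 47.5 to 48.8 percentage points, with treated levels from 23.6% to 38.8%. Maf (chr8:115682942-115707794, - strand) had 2 neighbouring regions, 6.69 and 5.68 kb past its start site, at chr8:115700891-115701326 in an intron (85.0% and 46.0%) and at chr8:115701473-115702757, which touches an untranslated exon (54.5% and 25.3%). Batf (chr12:85686669-85709087, + strand) had an intronic region 4.40 kb past its start site (94.2% and 46.8%) and one at 15.7 kb that differed less (93.8% and 81.5%).

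Bhlhe40 (chr6:108660629-108666925, + strand), the member with a lower RNA level in treated cells, was hypo-methylated as well. Its regions lay in the gene, with a centre 1.68 kb past the start site, at chr6:108661912-108662708 (46.8% and 28.3%), 5.13 kb downstream (34.3% and 7.61%) and 37.9 kb downstream (84.7% and 53.7%). Tox2 (chr2:163203125-163324170, + strand) had no DMR of either kind.

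**Figure D3:**
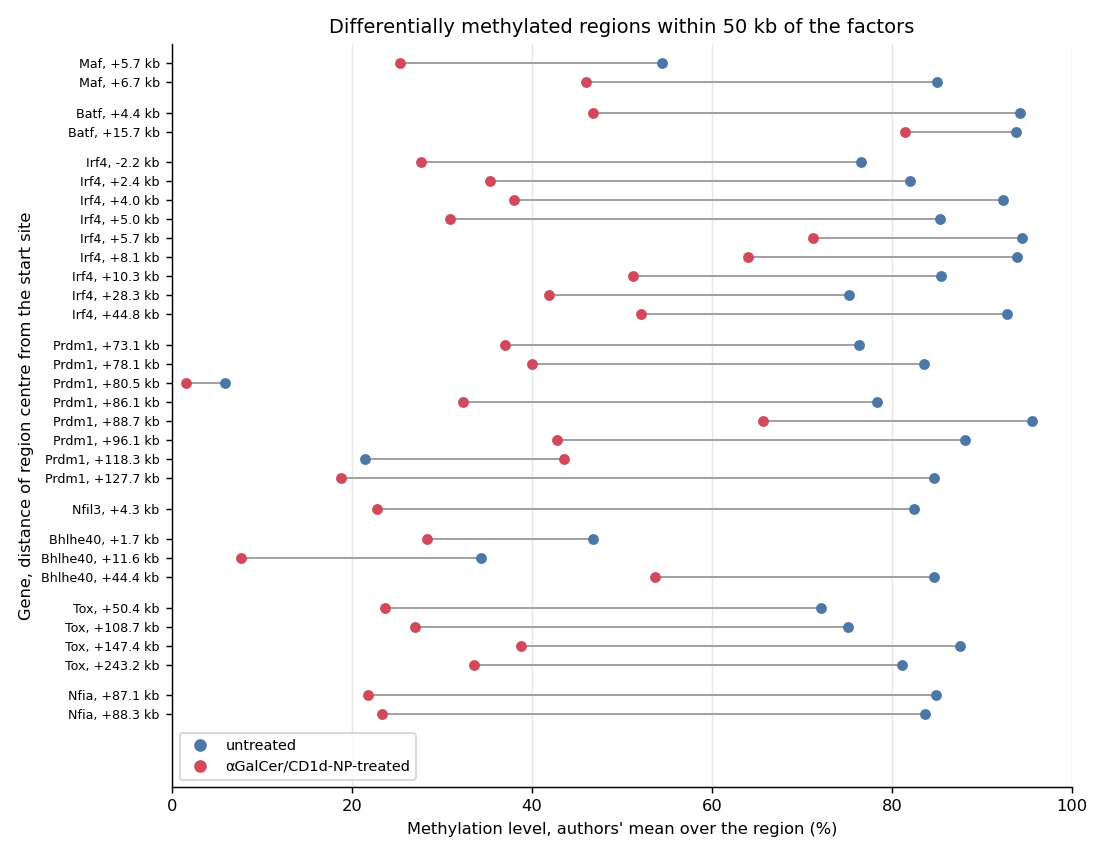
Methylation level in untreated (blue) and αGalCer/CD1d-NP-treated (red) mice of the 31 DMRs within 50 kb of a member, as the authors' mean over each region in percent, by the distance of the region's centre from the start site. In 30 of 31 regions the treated value is the lower one, and the exception is the region of Prdm1 at 118 kb (21.5% and 43.5%).

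A stretch of 5 regions is shown as sequence, because these hold the largest drop in methylation of Prdm1, Nfia, Nfil3, Irf4 and Maf, respectively. Each is the stretch of 240 bases of the region with most measured CpG cytosines, on the + strand of GRCm38, with the CpGs in capitals. The regions were chr10:44400632-44400871 (Prdm1), chr4:97859698-97859937 (Nfia), chr13:52976586-52976825 (Nfil3), chr13:30754175-30754414 (Irf4) and chr8:115700977-115701216 (Maf).
Prdm1: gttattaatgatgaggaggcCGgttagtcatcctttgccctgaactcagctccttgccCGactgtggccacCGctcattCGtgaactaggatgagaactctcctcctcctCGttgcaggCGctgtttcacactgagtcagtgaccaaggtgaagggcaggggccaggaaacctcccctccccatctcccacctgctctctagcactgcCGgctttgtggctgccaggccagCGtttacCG
Nfia: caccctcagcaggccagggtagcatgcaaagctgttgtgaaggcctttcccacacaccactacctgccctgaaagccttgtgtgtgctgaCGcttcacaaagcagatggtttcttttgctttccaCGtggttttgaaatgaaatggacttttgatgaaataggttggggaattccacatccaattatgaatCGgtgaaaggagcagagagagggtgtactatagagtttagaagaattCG
Nfil3: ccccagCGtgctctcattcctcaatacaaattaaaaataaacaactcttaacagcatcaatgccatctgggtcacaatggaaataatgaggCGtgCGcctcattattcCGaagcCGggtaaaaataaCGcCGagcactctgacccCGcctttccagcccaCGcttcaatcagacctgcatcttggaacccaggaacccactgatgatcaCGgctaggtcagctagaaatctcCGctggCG
Irf4: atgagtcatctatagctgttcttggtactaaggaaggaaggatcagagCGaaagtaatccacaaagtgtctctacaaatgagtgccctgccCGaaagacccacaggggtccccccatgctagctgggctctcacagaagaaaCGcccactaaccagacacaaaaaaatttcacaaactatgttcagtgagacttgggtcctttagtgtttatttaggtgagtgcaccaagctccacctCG
Maf: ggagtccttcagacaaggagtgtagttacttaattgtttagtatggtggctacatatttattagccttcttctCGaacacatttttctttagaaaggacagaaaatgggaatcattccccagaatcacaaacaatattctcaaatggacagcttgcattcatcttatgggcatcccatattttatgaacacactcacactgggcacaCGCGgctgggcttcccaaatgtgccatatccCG
In the stretch of Prdm1, the 18 CpG cytosines had a mean of 85.2% in untreated mice and 12.2% in treated mice, where the highest was 20%. The 24 cytosines of the Nfil3 stretch went from a mean of 92.0% to 26.3%, without overlap between the lowest untreated (82%) and the highest treated value (35%). In the stretch of Irf4 the means were 83.3% and 19.3%, in that of Nfia 81.5% and 14.4%, and in that of Maf, where treated values reached 63%, 88.4% and 50%. The regions were picked for their drop, so that such gaps are a description.

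Some letters that the members' own products are known to bind occur in these regions. Motifs were searched on both strands in the central 300 bases of every DMR. The AP-1 and BATF motif TGANTCA was found in 12 of the 30 hypo-methylated DMRs of members (40%), in 30.7% of all 1983 hypo-methylated DMRs and in 5.06% of the 890 hyper-methylated DMRs, which are richer in G and C (medians of 45%, 45.7% and 51%). The motif that holds GAAA, 2 free bases and GAAA, shared by IRF factors and BLIMP-1, was found in 13.3%, 10.5% and 2.58% of these sets, TTACNTAA of NFIL3 in 6.67%, 2.92% and 1.91%, and the E-box CACGTG of BHLHE40 in 6.67%, 6.91% and 7.19%. The spaced IRF and BATF composite, which holds TTTC and, after 4 free bases, the AP-1 motif, was found in 1 member region, in 1.56% of hypo-methylated and in no hyper-methylated DMRs. That region is the one downstream of Prdm1, where it covers chr10:44400756-44400770 in the stretch printed above. The composite with GAAA directly before the AP-1 motif and the extended MAF motif, with TGC directly before it, were in no central window of the members' hypo-methylated regions and in 1.21% and 1.31% of all hypo-methylated DMRs. The NFI motif, TTGGC and GCCAA with 5 free bases between them, was in none of the 2873 windows. An AP-1 motif lies near the start of the Irf4 stretch (chr13:30754176-30754182), the Nfia stretch holds the E-box with its own CpG (chr4:97859821-97859826), and the Maf stretch holds an NFIL3 motif (chr8:115701002-115701009).

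The fragment table of the multiome holds both libraries, whose barcodes end in 1 or 2. No source assigns an ending to a group, so that the endings were compared with each other and not as treated and untreated. There were 8563 barcodes of ending 1 and 7235 of ending 2 with at least 1000 fragments, with medians of 7101 and 8594 fragments. No other filter was applied to barcodes, and no doublet caller was run. A further check found that 100 barcode sequences occurred under both endings. Each end of a fragment marks an insertion of the transposase, and 162692754 and 149624472 ends were counted. Ends were scaled per 1000000 ends of the same ending, called normalised ends here. Ratios are those of ending 2 over ending 1, with an exact interval for counting error. Both ends of a fragment were treated as independent counts, so that these intervals are too narrow.

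At the promoters (2 kb on either side of the outermost annotated start site), 8 of 9 members lay within 2-fold. Ordered by ending 1, Bhlhe40 had the most normalised ends (164 in ending 1 and 166 in ending 2, ratio of 1.01). Maf (80.6 and 83.0, ratio of 1.03), Nfia (55.1 and 63.3, ratio of 1.15), Prdm1 (44.8 and 38.0, ratio of 0.849) and Batf (42.9 and 46.3, ratio of 1.08) followed. In ending 2, Irf4 (61.1) lay above Batf, Nfil3 and Prdm1. Within 500 bp of the start site the log2 ratio of Prdm1 turned from -0.24 to 0.14, that of Maf from 0.04 to -0.02 and that of Bhlhe40 from 0.02 to -0.04. Irf4 (40.8 and 61.1, ratio of 1.5), Nfil3 (34.9 and 45.8, ratio of 1.31) and Tox (27.6 and 33.0, ratio of 1.19) lay higher in ending 2. Tox2 alone passed 2-fold, with 7.50 and 29.5 normalised ends (ratio of 3.93, interval from 3.69 to 4.19), and 6.24% and 21.2% of nuclei had an end there. Among 18049 protein-coding genes, 6.9% had a promoter at least 2-fold higher in ending 2 and 1.08% one at least 2-fold lower, which makes 7.98% in either direction. The promoters of Il10, Il21 and Lag3 had ratios of 7.78, 14.6 and 6.40.

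The order changed away from the promoters. Over gene bodies, Nfia (ratio of 2.52) and Nfil3 (ratio of 2.45) passed 2-fold, as 3.25% of 19297 protein-coding genes did in this direction and 0.995% in the other, and Tox reached 1.78. In the hypo-methylated DMRs of members, 22 of 30 had at least 2-fold more normalised ends in ending 2 and none at least 2-fold fewer, with a median ratio of 3.38. This is near the share over all hypo-methylated DMRs with at least 50 ends, of which 75.8% were at least 2-fold higher in ending 2, and it is not particular to the members. Of hyper-methylated DMRs, 1.11% were at least 2-fold higher and 37.3% at least 2-fold lower in ending 2, with a median ratio of 0.586.

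The largest ratio was in the Tox region 109 kb past the start site, with 13 ends in ending 1 and 727 in ending 2 (ratio of 60.8, interval from 35.3 to 115). The intronic region of Nfil3 had 92 and 1919 ends (ratio of 22.7, interval from 18.4 to 28.3), in a gene whose promoter differed little. Those of Nfia had 24 and 437 ends (ratio of 19.8) and 174 and 1970 ends (ratio of 12.3). At Prdm1, the downstream region with the largest drop in methylation had 316 and 2275 ends (ratio of 7.83), and an exonic region at chr10:44442157-44442726 had 102 and 757 (ratio of 8.07). The hyper-methylated region between them had 941 and 787 ends (ratio of 0.909).

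The Irf4 regions ranged from 1.08 to 5.90, the highest in the region whose stretch is printed above (114 and 619 ends). Bhlhe40 had ratios of 1.59, 2.65 and 11.9, the last 37.9 kb downstream. The DMRs of Maf had ratios of 1.38 (63 and 80 ends) and 0.921 (367 and 311 ends), both with intervals that include 1. In bins of 1 kb, the Maf bins past 2-fold with the most ends in ending 2 lay upstream, about 34.7 kb before the start site with 30 and 1408 ends (ratio of 51.0) and about 19.7 kb before it with 49 and 868 ends (ratio of 19.3), both outside any hypo-methylated DMR. Nfia had a further bin without a DMR 113 kb past its start site, with 11 and 1150 ends (ratio of 114). At Tox2, which had no read in the listed cells and no DMR, the bin at the start site (639 and 3014 ends, ratio of 5.13) and one 36.6 kb upstream (105 and 939 ends, ratio of 9.72) had the most ends in ending 2 among the bins past 2-fold.

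Of the 1-kb bins with at least 50 ends within 50 kb of a member, at least 2-fold more normalised ends in ending 2 were found in 50% for Nfia (64 of 128 bins), 47.9% for Maf (34 of 71), 43.8% for Tox (109 of 249), 30.9% for Nfil3 (30 of 97), 29.6% for Tox2 (42 of 142), 26.04% for Batf (25 of 96), 21.6% for Irf4 (22 of 102), 7.69% for Bhlhe40 (8 of 104) and 7.45% for Prdm1 (12 of 161). The share over all 530770 such bins was 7.94%, near those of Bhlhe40 and Prdm1. In the other direction, bins at least 2-fold lower in ending 2 made up 4% of all bins, and were 7 at Prdm1, 3 at Bhlhe40, 2 at Batf, 1 at Tox, 1 at Nfia and 0 at Maf, Irf4, Nfil3 and Tox2. Of the higher bins, those that overlapped a hypo-methylated DMR were 10 of 22 at Irf4, 5 of 12 at Prdm1, 3 of 8 at Bhlhe40, 6 of 109 at Tox, 3 of 64 at Nfia, 2 of 30 at Nfil3, 2 of 25 at Batf, 1 of 34 at Maf and 0 of 42 at Tox2, as compared to 4.01% of all 42133 higher bins. These members differ in how many of their bins, higher or not, hold such a DMR. The number was 15 of 102 at Irf4, 11 of 161 at Prdm1, 5 of 104 at Bhlhe40 and 6 of 249 at Tox. It was 3 of 128 at Nfia, 2 of 97 at Nfil3, 3 of 96 at Batf, 3 of 71 at Maf and 0 of 142 at Tox2. The 4.01% is therefore not a like background.

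**Figure D4:**
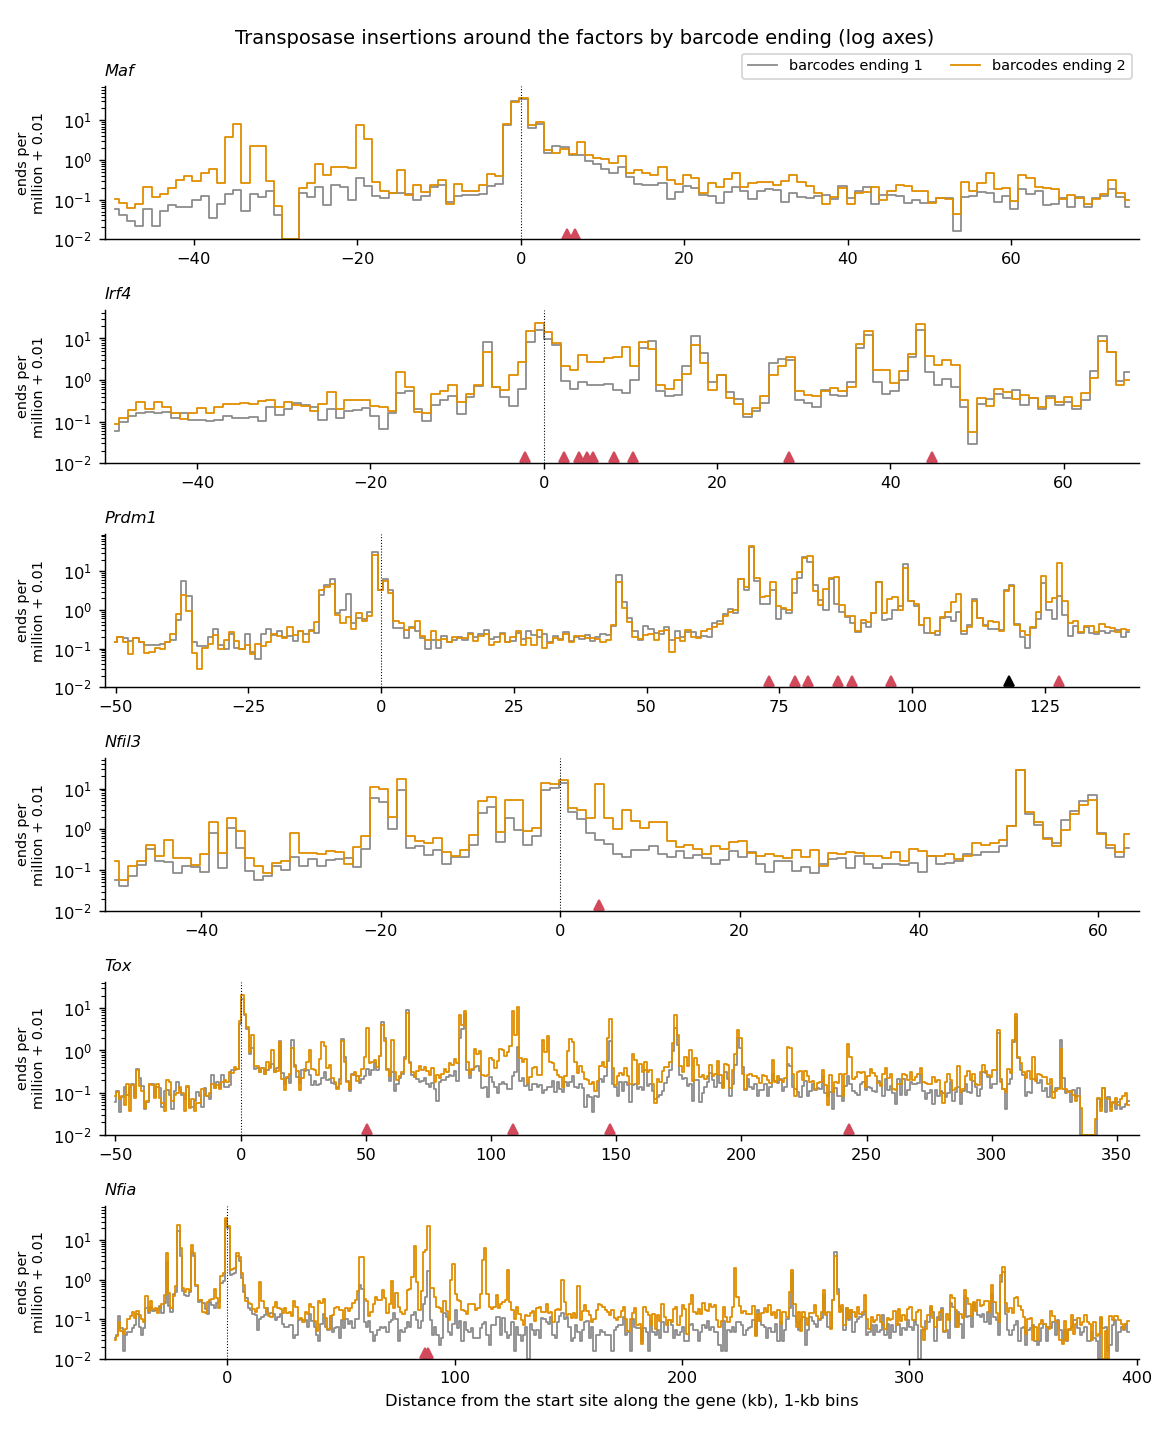
Transposase normalised ends (plus 0.01, log axes) in 1-kb bins around 6 members, by distance from the start site along the gene, for barcodes ending 1 (grey) and 2 (orange), with triangles at hypo-methylated (red) and hyper-methylated (black) DMRs. The endings lie close together at the start sites and part at distal bins, such as those 34.7 kb upstream of Maf (ratio of 51.0), in the Nfil3 intron and 113 kb into Nfia (ratio of 114).

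**Figure D5:**
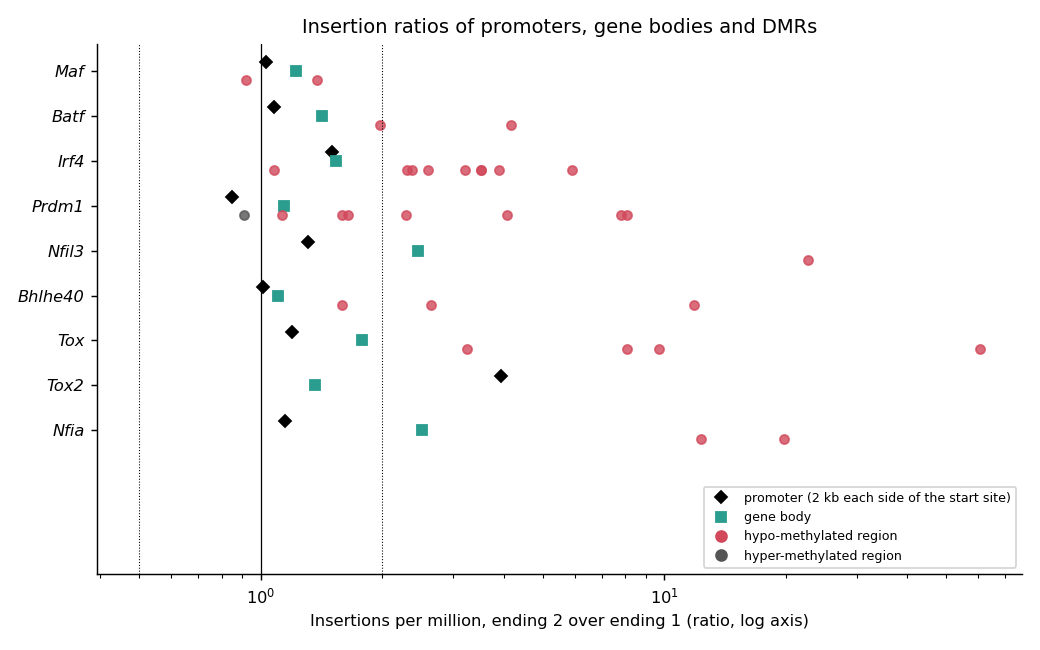
Ratio of normalised ends in ending 2 over ending 1 (log axis, dotted lines at 2-fold) for the promoter, the gene body and each DMR of the 9 members. Promoters lie between 0.849 and 1.5 except that of Tox2 (3.93), and hypo-methylated DMRs reach 60.8 in Tox and 22.7 in Nfil3.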

How the data were processed

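The authors aligned the SmartSeq2 reads with STAR to GRCm38, and the deposited tables hold raw read counts per gene and cell, without molecular identifiers. The authors mapped bisulfite reads with BSMAP to mm10 and called DMRs with metilene. Their deposited values are methylated fractions per group. The study describes 3 replicates per group, which the tables do not separate, and how they were combined into 1 value is not given in the sources used here. The authors' columns of differences and q-values were not used. Multiome fragments were made by the authors with Cell Ranger ARC and BWA-MEM, and the deposited counts of reads per unique fragment were used only to describe the table.

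Counts were summed over the cells that the study listed with a sub-cluster and scaled to counts per 1000000 counts (CPM), with 1 CPM added for ratios. Genes with reads in at least 10 cells were compared at 2-fold. DMRs were assigned within 50 kb of a gene body. Fragment ends were counted for barcodes with at least 1000 fragments, and each ratio was called from at least 50 ends. The scripts used Python 3.11.15, pandas 2.3.3, scipy 1.17.1, pysam 0.24.0 and, for TMM scaling, edgeR 4.0.16 in R 4.3.3, and were tested on simulated data. Sequences were read from the GRCm38 reference.

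Named genes were the members, Il10, Il21 and Lag3, fixed lists of paralogs, other transcription factors, surface and effector genes and cell type markers, the 3 genes most like each widely read member, and genes next to a DMR. The members and lists were chosen with earlier results of these data known. The alternatives changed the cells, lanes, scaling, prior, depth, partner gene, distance, region size, barcodes and window. Bulk ATAC-seq was not analysed here.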

Additional observations from a re-analysis of the deposited data

Results flagged for a closer look

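The count tables also held 11 untreated and 31 treated cells without a sub-cluster in the study's list, which were left out above. Maf had reads in 15 of these 31 treated cells (48.4%, exact binomial interval from 30.2% to 66.9%) and in 1 of the 11 untreated cells (9.09%, interval from 0.230% to 41.3%), a higher share in data outside the comparison, with overlapping intervals. Tox2, which had no read in any listed cell, had 90 reads in 1 of the 31 treated cells and none in the 11 untreated cells. The cells outside the list had medians of 1528 genes (treated) and 1630 genes (untreated), and 17 and 8 of them had over 1500 genes, as compared to medians of 850 and 861 in the listed cells. The part of this higher gene number in both results was not tested. No group held 4 or more samples, so that no sample could be compared with the others of its group.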

How the results depend on the processing

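The number of members past 2-fold in the RNA sums (5) stayed between 4 and 6 in 12 alternatives. Nfil3 passed the line in some of them, and Batf fell under it in lane 1. The members whose share of cells had separate intervals (2, Maf and Batf) were 1 in lane 1 and 1 in lane 2, Maf in both. Each lane holds fewer cells, and the part of this was not tested. With all cells of the tables, the members with separate intervals were Maf and Tox. Members read more often with a partner (3 with Il10) were 5 with Lag3 in place of Il10, among them Tox, whose level with Lag3 went against its share. The 30 hypo-methylated DMRs became 17 within 50 kb of the start site, which leaves out those of Prdm1, Tox and Nfia, and 14 with at least 20 CpGs, which leaves out those of Batf, Tox and Nfia. One member (Tox2) passed 2-fold at the promoter, and 2 (Nfil3 and Nfia) over the gene body. The other 28 values of these 5 results stayed within 1.5 times. Over 11 alternatives the log2 ratio ranged from 1.19 to 3.71 for Maf, from 0.12 to 0.96 for Prdm1 and from -3.16 to -1.40 for Bhlhe40, and that of Nfia, from -0.06 to 1.54, changed sign in lane 1. Leaving out cells with markers of other types and shared barcode sequences were alternatives chosen after seeing the data. With 1 sample per group, no replicate could be left out. No paired analysis was possible because each assay used here has 1 sample per group. Read depth behind the methylation values is unknown.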

Other observations

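Among the nuclei of the multiome with an end at the Tox2 promoter, the share was 6.24% in ending 1 and 21.2% in ending 2, while the corresponding shares were 3.16% and 20.6% for Il10, 1.23% and 14.2% for Il21 and 4.94% and 25.4% for Lag3. An intronic region of Prdm1 that was nearly unmethylated in both groups (5.91% and 1.54%) held the most ends of any DMR of the members, 5643 in ending 1 and 5843 in ending 2 (ratio of 1.13).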
